A study of Arabidopsis thaliana with 4 samples.

Results

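Retained introns of 86 to 110 bp are stretches of transcript that some RNA molecules keep and others remove, of a length common among Arabidopsis introns. They were taken from the authors' deposited table of alternative splicing events by length alone: every intron retention event with coordinates in both genomes, of equal length in Col and Ler, and of 86 to 110 bp. This gave 1818 introns in 1409 genes, out of 7399 retention events (24.6%) in 3762 genes and 14133 splicing events in 5268 genes. A further 210 introns were of this length in Col but of another length in Ler and are not members.

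The groups were Ler (Landsberg erecta) and Col (Columbia), natural strains of Arabidopsis thaliana called ecotypes, each a plant line with its own genome sequence, with no transgene, mutation or treatment named in the labels. Both were 14 days old and grew on MS plates with 1% sucrose at 22 °C under 8 h of light and 16 h of dark. Polyadenylated RNA was sequenced from 2 samples of Ler and 2 of Col. In the labels one field gives the first leaf as source and another gives shoots, and the table holds no expression levels against which the tissue could be checked. For each event the table lists 1 pooled inclusion level per ecotype, so that no value below has an SD or an n, and the number of reads behind each value is unknown. The inclusion level of a retention event is called the retention level here. A direction mark in the authors' deposited table says that an event was higher in Ler or in Col, and all marked events there have q below 0.05 and differ by more than 10 percentage points.

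An intron is removed by the spliceosome, which recognises a donor site at its start, usually GT, a branch point adenosine upstream of its end, and an acceptor site at its end, usually AG. Plant introns are short and rich in T compared with the exons around them, and keeping an intron is the most common kind of alternative splicing in plants. A transcript that keeps an intron often meets a stop codon, and such transcripts can be held in the nucleus or degraded. A small class of introns is removed by a second, minor spliceosome, and some of those start with AT and end with AC.

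The introns on which the results turn are shown first, from the TAIR10 nuclear chromosomes as RefSeq holds them, which are the Col sequence. The Ler sequence was not used here. Each is written 5′ to 3′ on the strand of its gene, and the capitals mark its first 2 and last 2 bases. The first set holds introns of coding regions with differences of over 50 points between the ecotypes, and with them the 92-bp intron of AT2G30600, which shares its donor with the 98-bp one.
AT3G61420, 88 bp, chr3:22728518-22728605 on the minus strand: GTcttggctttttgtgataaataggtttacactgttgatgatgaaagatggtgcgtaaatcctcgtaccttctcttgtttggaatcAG
AT2G32150, 88 bp, chr2:13659293-13659380 on the plus strand: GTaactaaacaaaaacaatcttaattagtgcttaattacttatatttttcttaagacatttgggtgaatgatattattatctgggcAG
AT4G23330, 93 bp, chr4:12194404-12194496 on the plus strand: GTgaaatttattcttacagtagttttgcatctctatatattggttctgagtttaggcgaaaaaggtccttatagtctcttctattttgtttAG
AT1G02300, 87 bp, chr1:454175-454261 on the plus strand: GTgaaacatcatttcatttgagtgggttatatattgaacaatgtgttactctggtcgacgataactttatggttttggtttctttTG
AT2G30600, 92 bp, chr2:13040279-13040370 on the plus strand: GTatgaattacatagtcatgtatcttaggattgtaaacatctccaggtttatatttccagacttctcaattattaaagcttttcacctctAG
AT2G30600, 98 bp, chr2:13040279-13040376 on the plus strand: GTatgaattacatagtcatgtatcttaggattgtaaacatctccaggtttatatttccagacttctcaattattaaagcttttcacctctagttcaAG
AT2G25050, 89 bp, chr2:10654652-10654740 on the minus strand: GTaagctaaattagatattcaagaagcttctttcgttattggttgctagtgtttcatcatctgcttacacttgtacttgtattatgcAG

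The next set holds both introns of this length in WRKY40 and in WRKY33, which are used below for introns of 1 gene that differ together.
WRKY40, 95 bp, chr1:30384673-30384767 on the plus strand: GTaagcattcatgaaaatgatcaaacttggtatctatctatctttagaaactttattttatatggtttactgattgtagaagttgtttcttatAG
WRKY40, 109 bp, chr1:30384885-30384993 on the plus strand: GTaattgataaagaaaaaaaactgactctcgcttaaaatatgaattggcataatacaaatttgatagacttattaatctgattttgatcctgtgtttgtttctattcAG
WRKY33, 90 bp, chr2:16109777-16109866 on the plus strand: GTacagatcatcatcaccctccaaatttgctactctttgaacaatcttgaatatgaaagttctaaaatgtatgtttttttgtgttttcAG
WRKY33, 96 bp, chr2:16110029-16110124 on the plus strand: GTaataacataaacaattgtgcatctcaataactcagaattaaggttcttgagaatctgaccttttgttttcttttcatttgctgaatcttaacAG

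The last set shows the range of ends and of reading frames. NHX5 has AT-AC ends and AT4G31000 AT-AG ends, AT3G18680 has a GC donor, and LHCA1 and AT2G26500 hold intervals without a stop codon in frame. The RLP26 interval reads CT to AC on the strand of its gene and so GT to AG on the opposite strand.
NHX5, 102 bp, chr1:20296560-20296661 on the minus strand: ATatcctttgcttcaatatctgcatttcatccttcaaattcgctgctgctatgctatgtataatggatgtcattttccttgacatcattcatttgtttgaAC
AT4G31000, chr4:15104520-15104624 on the plus strand: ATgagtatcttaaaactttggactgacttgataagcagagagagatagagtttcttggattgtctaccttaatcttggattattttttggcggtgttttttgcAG
AT3G18680, 99 bp, chr3:6429309-6429407 on the plus strand: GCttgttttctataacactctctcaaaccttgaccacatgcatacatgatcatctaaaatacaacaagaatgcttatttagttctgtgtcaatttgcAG
LHCA1, 102 bp, chr3:20339968-20340069 on the minus strand: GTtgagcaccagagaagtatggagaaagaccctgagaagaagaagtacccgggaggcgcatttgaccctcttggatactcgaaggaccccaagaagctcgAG
AT2G26500, 96 bp, chr2:11270596-11270691 on the plus strand: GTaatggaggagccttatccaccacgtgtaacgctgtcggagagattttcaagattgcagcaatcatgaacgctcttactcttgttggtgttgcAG
RLP26, 89 bp, chr2:14023102-14023190 on the plus strand: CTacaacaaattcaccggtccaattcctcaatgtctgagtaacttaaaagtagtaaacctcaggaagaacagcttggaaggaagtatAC

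The window is a common intron length of the species. The annotation holds 131240 introns of protein-coding genes with a median length of 101 bp, and 43657 of them (33.3%) are 86 to 110 bp long. Only 1128 members equal one of these, which is 2.58% of the annotated introns in the window. In the annotation of their own gene, the other members lie inside an exon or match no annotated form. Some of them equal an annotated intron of a gene on the opposite strand, as given below. The median length of the members was 95 bp. Most genes had 1 member (1109 genes), while 223 had 2, 54 had 3 and 23 had 4 or more.

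Over all members the median retention level was 47.4% in Ler and 47.3% in Col, against 48.7% in both ecotypes for all retention events. This median lies where members are spread more thinly over the scale. Levels of 20 to 50% were listed for 338 members in Ler and 357 in Col. Levels of 50 to 80% were listed for 333 in Ler and 334 in Col. A level of 5 to 20% was listed for 530 members in Ler and 536 in Col, and a level of 95% or more for 278 in Ler and 268 in Col. The level of an intron went with what the annotation holds. The 654 introns of which only the spliced form is annotated had a median level of 16.0% in Ler and 15.3% in Col. The 474 introns with both forms annotated had medians of 37.2% in Ler and 40.2% in Col. The 429 introns with neither form annotated lay at 76.9% in Ler and 76.0% in Col. The 261 intervals annotated only as exon lay at 96.0% in Ler and 95.2% in Col, so that the removed form was the rare one.

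**Figure D1:**
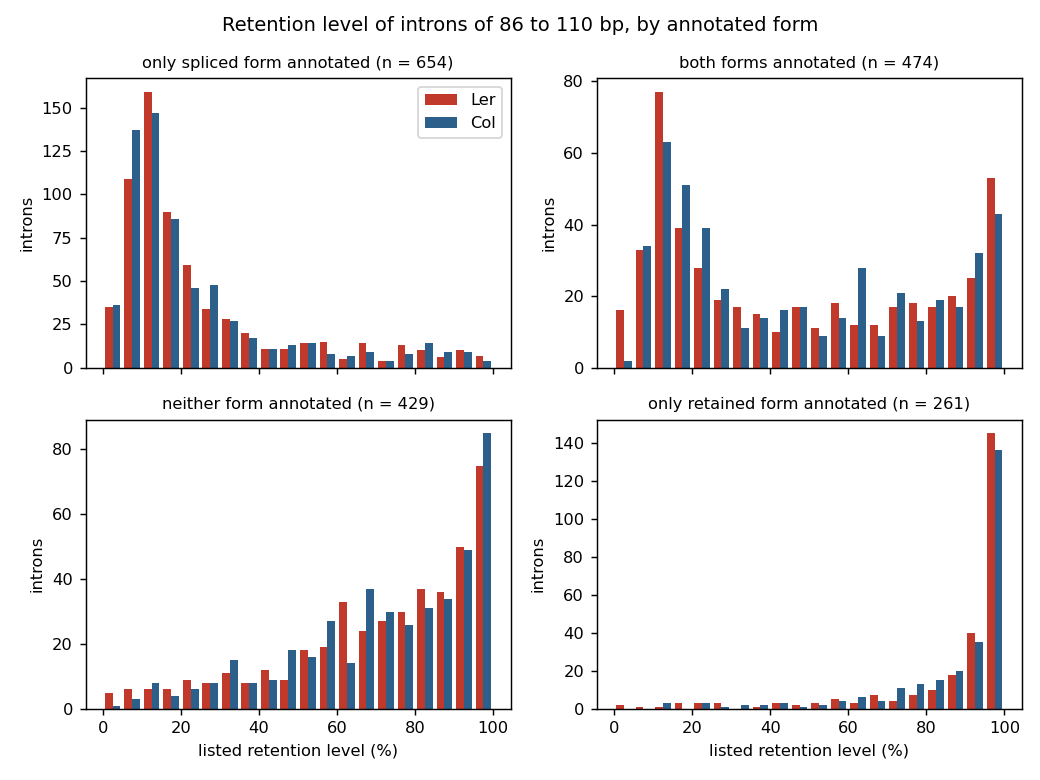
Number of introns of 86 to 110 bp (vertical axis) by listed retention level in percent (horizontal axis, bins of 5 points), in 4 panels by which form is annotated, with Ler in red and Col in blue. Introns with only the spliced form annotated gather at low levels (medians 16.0% in Ler and 15.3% in Col) and those with only the retained form at high levels (96.0% in Ler and 95.2% in Col).

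A high retention level need not mean that many transcripts keep the intron, because a different junction over the same interval can be in use. Of the members, 571 are also a junction of an event of another type, and their median was 58.8% in Ler and 58.3% in Col. The 595 members that overlap another retention interval lay at 68.1% in Ler and 68.3% in Col. The 471 members of which only the spliced form is annotated, which share no end with an event of another type and overlap no other retention interval, are called plain introns here. Their median retention level was 14.1% in Ler and 13.7% in Col, with quartiles of 9.86 and 24.9% in Ler and 9.16 and 26.4% in Col. A level of 5 to 20% was listed for 286 plain introns (60.7%) in Ler and 291 (61.8%) in Col.

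Shorter retained introns had lower medians than the members, and longer ones had higher medians. Retained introns of up to 85 bp (1415) had medians of 41.9% in Ler and 38.8% in Col. Those of over 110 and up to 250 bp (2096) had medians of 55.9% in Ler and 56.7% in Col, and those of over 250 bp (1109) had 53.3% in Ler and 50.7% in Col. At the limits of the window, the 100 introns of 86 bp had medians of 28.5% in Ler and 28.4% in Col, and those of 85 bp, just outside, had 39.8% in Ler and 37.2% in Col. The 43 introns of 110 bp had medians of 61.6% in Ler and 62.2% in Col, and the 43 introns 1 bp longer had 55.6% in Ler and 66.7% in Col. Across the members, Spearman's rho between length and level was 0.05 in Ler and 0.04 in Col. The members of 1 gene share their transcripts, so this is a description across introns with no p-value.

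Most members lay within the coding span of their gene, where a kept intron enters the protein or ends it. There were 1519 of these, with a median level of 37.5% in Ler and 39.5% in Col. The 161 members before the start codon had medians of 66.7% in Ler and 62.3% in Col, and the 96 after the stop codon had 78.7% in Ler and 78.6% in Col. The order held where only the spliced form is annotated. There the 615 coding introns had medians of 15.6% in Ler and 14.9% in Col, the 27 on the 5′ side 34.1% in Ler and 24.5% in Col, and the 12 on the 3′ side 36.2% in Ler and 30.8% in Col. By position in the transcript, and again with only the spliced form annotated, the 369 internal introns had medians of 14.0% in Ler and 14.5% in Col. The 115 last introns had medians of 20% in Ler and 16.8% in Col, and the 73 first introns 19.5% in Ler and 18.6% in Col.

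The sequence of the members went with their annotated form in part. The share of T between bases 4 and 20 before the end of the intron, the stretch next to the acceptor, was 47.9% in GT-AG and GC-AG introns known only in spliced form and 45.3% in those with both forms annotated. Introns without any annotated form had 40.9%, and intervals annotated only as exon had 36.7%. The median GC content was 33.6% with only the spliced form annotated, 35.0% with both, 33.7% with neither and 37.8% with only the retained form. The donor start GTAAG, read on the sense strand as were all motifs here, opened 12.8% of introns with only the spliced form annotated. It opened 9.92% of those with both forms, 14.0% of those with neither and 4.98% of those with only the retained form. Over all members the share was 11.2%, against 13.1% of all retained introns of at least 50 bp. The end CAG closed 53.0% of members and TAG 24.9%. A branch-point-like word (CTAAC or CTGAC, or either with T as its last base) stood in the last 50 bases of 21.0% of members and of 22.8% of all retained introns of at least 50 bp.

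**Figure D2:**
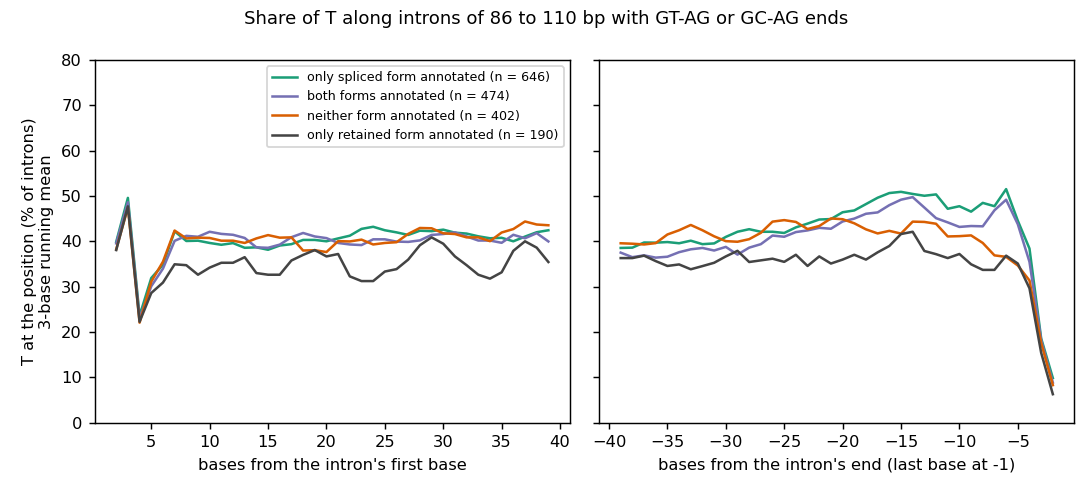
Share of introns with T at each base (vertical axis, percent, running mean over 3 bases) by distance in bases from the intron's start (left) and from its end (right), for 4 annotated forms with GT-AG or GC-AG ends. Near the acceptor, the lines for introns annotated as spliced lie above those for intervals annotated only as exon, with mean shares of 47.9% and 36.7% over bases 4 to 20 before the end.

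Level went with base composition over all members and hardly within the plain introns. Across the 1818 members Spearman's rho between GC content and level was 0.24 in both ecotypes. In the third of members lowest in GC the median level was 33.3% in Ler and 30.8% in Col, and in the third highest in GC it was 72.7% in Ler and 69.6% in Col. Across the 471 plain introns rho was 0.01 in Ler and 0.14 in Col. Members share genes, and GC content differed between annotated forms, so these are descriptions.

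Nearly all members had the ends that the major spliceosome uses. GT-AG ends were found in 1673 (92.0%), with medians of 43.4% in Ler and 43.6% in Col. A GC donor with an AG acceptor was found in 39 (2.15%), with medians of 55.6% in Ler and 58.9% in Col. Among all 7383 retained introns of at least 50 bp the shares were 93.2% and 2.33%, close to those of the members.

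AT-AC ends were found in 13 members (0.715%, against 0.555% of all retained introns of at least 50 bp), and they fell into 2 kinds. The start ATATCCTT, the donor sequence known from introns of the minor spliceosome, opened 7 of the 13. It opened 0.190% of all retained introns of at least 50 bp, most of which start with GT and so could not have it. The same word with GT as its first 2 bases was not looked for. All 6 AT-AC members of which only the spliced form is annotated had this start, and their levels ran from 7.25 to 35.0% in Ler and from 7.0 to 19.9% in Col. The lowest in Ler was NHX5, an endosomal sodium and potassium antiporter, with 7.25% in Ler and 10.3% in Col. BRCC36A, a deubiquitinating enzyme that acts in DNA repair, had 8.00% in Ler and 9.43% in Col. UXS4, which makes UDP-xylose for the cell wall, had 9.55% in Ler and 11.6% in Col. These introns were mostly removed in both ecotypes. The highest was AT1G73350, an ankyrin repeat protein gene, with 35.0% in Ler and 19.9% in Col, and it is the 1 AT-AC member marked in the authors' deposited table (higher in Ler, q = 0.0370). The seventh with this start was EMB2799, whose intron is not annotated, with 42.3% in Ler and 33.3% in Col. The 6 AT-AC members without this start are annotated as exon or not at all. Of these, TGG1, a myrosinase of glucosinolate breakdown, had 87.5% in Ler and 98.0% in Col. FNR1, which passes electrons from ferredoxin to NADP in the leaf, had 86.2% in Ler and 95.2% in Col.

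CT-AC ends on the strand of the gene were found in 78 members (4.29%, against 3.16% of all retained introns of at least 50 bp). These read GT to AG on the opposite strand. None is annotated as a spliced intron of its own gene: 63 are annotated as exon and 15 in neither form. Of the 78, 38 (48.7%) equal an annotated intron of a gene on the opposite strand, and 50 (64.1%) overlap such a gene, against 79 of the 1740 other members (4.54%). Their median level was 88.7% in Ler and 82.8% in Col. The labels do not state whether the reads keep their strand, so for these intervals the reads of the gene and of its antisense partner cannot be told apart. Of the 78, 6 were marked (7.69%, against 7.46% of all events), 4 higher in Ler and 2 in Col. RLP26, a receptor-like protein gene of the kind that takes part in recognising pathogens, holds 2 of them. Its 89-bp interval had 95% in Ler and 78.6% in Col, and its 91-bp interval had 98.4% in Ler and 67.5% in Col.

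The remaining 15 members (0.825%) had other ends in the Col sequence. Their median level was 88.4% in Ler and 97.7% in Col, and 2 were marked, both higher in Col. AT1G02300, a cysteine proteinase gene, holds a GT-TG interval with 2.65% in Ler and 97.4% in Col. AT1G12230, an aldolase family gene, holds a GT-GG interval with 88.4% in Ler and 98.5% in Col. An annotated AT-AG intron of AT4G31000, a calmodulin-binding protein gene, was listed at 0 in Ler and at 89.3% in Col and carries no mark, with q = 1.34e-05 in the authors' deposited table. Which bases Ler has at these ends was not examined here.

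Reading frame was examined for the 912 members that are annotated introns within the coding span. In 745 of them the kept intron would bring a stop codon into frame, and their median level was 15.8% in Ler and 16.3% in Col. In 166 no stop codon was met in the codons that touch the intron, with medians of 24.2% in Ler and 24.0% in Col, and 1 differed between transcripts. Of the 166, 57 have a length that is a multiple of 3. The other 109 shift the frame when kept, and stop codons beyond the intron were not looked for. The clearest division was among introns with both forms annotated and a length that is a multiple of 3, where a kept intron without a stop adds amino acids to the protein. The 42 such introns without a stop codon had medians of 78.0% in Ler and 73.5% in Col, and 24 of them (57.1%) lay over 50% in each ecotype. The 66 with a stop codon had medians of 14.7% in Ler and 16.8% in Col, and 9 (13.6%) lay over 50% in each ecotype. Retained introns of other lengths showed the same order, with medians of 84.7% in Ler and 83.3% in Col for 83 without a stop and 22.2% in Ler and 22.4% in Col for 195 with one. Among introns of the window with only the spliced form annotated the order did not hold. There 15 without a stop had medians of 15.2% in Ler and 10.5% in Col, and 173 with one had 14.1% in Ler and 14.3% in Col. The medians were thus close in Ler and in the opposite order in Col. None of the 15 lay over 50% in either ecotype, against 20 of the 173 in Ler and 16 in Col.

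**Figure D3:**
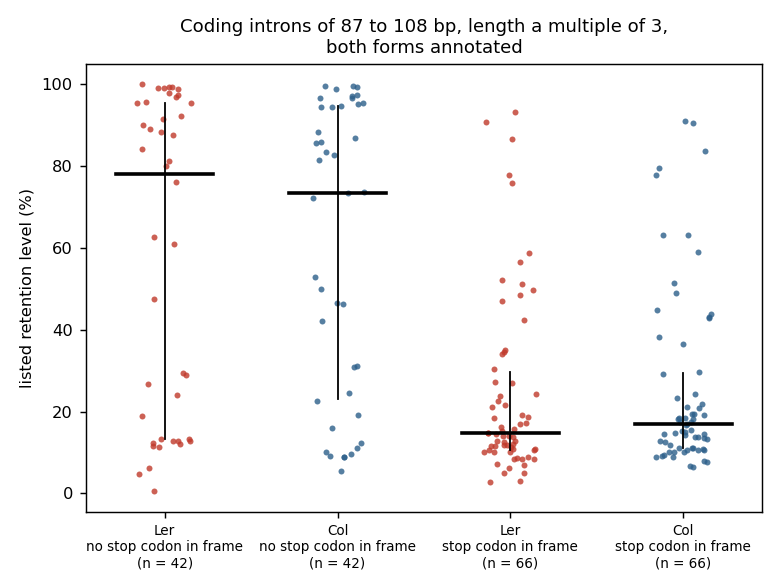
Listed retention level in percent (vertical axis) of coding introns with both forms annotated and a length that is a multiple of 3, by ecotype and by whether the kept intron holds a stop codon in frame. Each point is an intron, the thick bar is the median and the thin line spans the quartiles; the 42 introns without a stop have medians of 78.0% in Ler and 73.5% in Col, the 66 with a stop 14.7% in Ler and 16.8% in Col.

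The introns without a stop did not form a single class. The 34 that share no end with an event of another type and overlap no other interval had medians of 61.8% in Ler and 62.5% in Col, and the 49 with a stop chosen likewise had 14.0% in Ler and 15.2% in Col. The median GC content of the 42 was 37.2%, against 33.3% in the 66 with a stop. What part base composition had in the difference was not tested. The high end held genes of several kinds, among them EXPA1, an expansin that loosens the cell wall, with 100.0% in Ler and 95.1% in Col, and AT4G17810, a zinc finger gene, with 99.2% in Ler and 94.5% in Col. LHCA1, an antenna protein of photosystem I, kept a stretch of 34 codons at 99.1% in Ler and 99.6% in Col. AT2G26500, the petM subunit of the cytochrome b6f complex, kept 32 codons at 98.8% in Ler and 98.7% in Col. AT2G43090, an isopropylmalate dehydratase gene, kept 29 codons at 99.3% in Ler and 99.5% in Col. The sequence of each of these intervals, as printed above for LHCA1 and AT2G26500, starts with GT and ends with AG and can be read through without a stop codon. At the low end lay AT3G18680, an amino acid kinase gene with a GC donor, at 0.518% in Ler and 12.4% in Col, marked as higher in Col in the authors' deposited table (q = 3.82e-23). 5PTase12, an inositol phosphatase gene, had 12.9% in Ler and 5.41% in Col, and AT5G15610, with a GC donor, had 6.32% in Ler and 10.1% in Col.

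AT3G18680 was 1 of 6 marked introns among the 57 whose retention keeps the frame (10.5%, against 7.46% of all events). Among the others, MEE18 had 11.3% in Ler and 24.6% in Col, AT4G16670 had 26.8% in Ler and 52.9% in Col, and AT3G26085, a CAAX protease gene, had 4.73% in Ler and 46.3% in Col, all marked higher in Col. AT4G00170, a VAMP-associated protein gene of vesicle traffic, had 11.2% in Ler and 0.778% in Col, and AT4G18740 had 62.7% in Ler and 42.2% in Col, both marked higher in Ler. Of 188 intervals that lie within an annotated coding exon, 6 were marked (3.19%, 95% Wilson interval 1.47 to 6.79%, against 7.46% of all events). The 65 among them with a length that is a multiple of 3 had medians of 96.2% in Ler and 97.5% in Col. MPK20, a MAP kinase, was the 1 of these with a mark, at 17.8% in Ler and 38.8% in Col.

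The comparison of the ecotypes asked where splicing of these introns differs between Ler and Col. The authors' deposited table marks 135 of the 1818 members (7.43%, 95% Wilson interval 6.31 to 8.72%) in 119 genes, against a background of 7.46% of all 14133 events. Of the members, 72 (3.96%) were higher in Ler, against 3.38% of all events, and 63 (3.47%) were higher in Col, against 4.08% of all events. The shares of members are near the background in each case. Members higher in Ler made up 53.3% of those marked (Wilson interval 44.9 to 61.5%), and the unmarked members were also split, with 850 higher in Ler, 821 higher in Col and 12 equal. The intervals cover counting of introns only. In RNA of whole tissue, a change in the cells present and a change of splicing within cells cannot be told apart. The other lengths had marks on 6.43% of introns of up to 85 bp, 6.54% of those of over 110 and up to 250 bp and 4.96% of those of over 250 bp.

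Levels in the ecotypes were close for most members. Pearson's r between Ler and Col across the members was 0.91 and Spearman's rho 0.89. Across the 471 plain introns, which lack the spread between annotated forms, r was 0.81 and rho 0.56. The ecotypes were within 5 points of each other in 924 members (50.8%) and within 10 points in 1339 (73.7%). The median absolute difference was 4.90 points, against 5.19 points over all retention events and 3.78 points over all events. Among marked members it was 21.4 points, from 10.1 to 98.4. It exceeded 20 points in 79 members, of which 42 were higher in Ler and 37 in Col, 50 points in 12 (8 higher in Ler and 4 in Col), and 80 points in 6 (4 higher in Ler and 2 in Col).

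**Figure D4:**
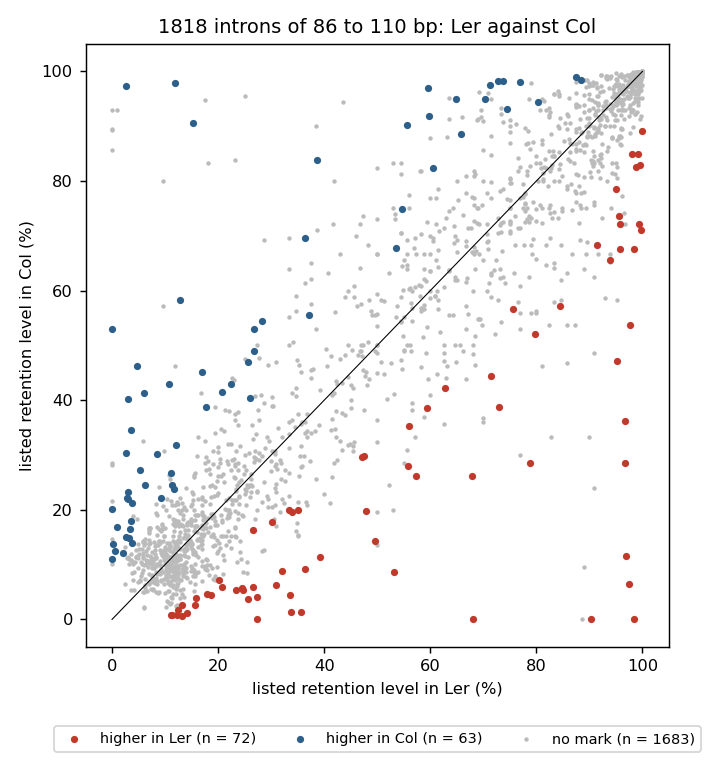
Listed retention level in Ler (horizontal axis, percent) against Col (vertical axis, percent) for the 1818 introns, 1 point each; red points are marked higher in Ler (72), blue points higher in Col (63) and grey points have no mark (1683). Most points lie along the line of equality, and the marked points reach the corners with a high listed level in one ecotype and a level near 0 in the other.

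Marks were unequal among the annotated forms. They stood on 63 of the 654 members with only the spliced form annotated (9.63%, Wilson interval 7.60 to 12.1%), 42 higher in Ler and 21 in Col. With both forms annotated they stood on 34 of 474 (7.17%), 12 higher in Ler and 22 in Col. With neither they stood on 28 of 429 (6.53%), 12 higher in Ler and 16 in Col, and with only the retained form on 10 of 261 (3.83%), 6 higher in Ler and 4 in Col. Plain introns had 42 marks in 471 (8.92%), 26 higher in Ler and 16 in Col. Introns with only the spliced form annotated and of other lengths were more evenly split, with 19 higher in Ler and 19 in Col up to 85 bp, 26 in Ler and 34 in Col over 110 and up to 250 bp, and 11 in Ler and 12 in Col over 250 bp. By position, and with only the spliced form annotated, 13 of 115 last introns were marked (11.3%, Wilson interval 6.73 to 18.4%, against 7.46% of all events), 11 higher in Ler and 2 in Col. Of 369 internal introns 38 were marked (10.3%), 22 higher in Ler and 16 in Col, and of 73 first introns 5 (6.85%), 4 higher in Ler and 1 in Col. Single introns had 2 marks in 37, both higher in Ler, and introns whose position differs between transcripts had 5 in 60, 3 higher in Ler and 2 in Col. An end shared with an event of another type was found in 52 of the 135 marked members and in 564 of the 1683 unmarked ones. How many reads lay behind each class is unknown, and its part in these shares was not tested.

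Members higher in Ler had medians of 51.3% in Ler and 18.7% in Col, and 31 of the 72 lay under 10% in Col. Several had a high listed level in Ler and a level at or near 0 in Col. AT3G61420, which encodes a BSD domain protein like a subunit of transcription factor TFIIH, had an 88-bp intron with 97.5% in Ler and 6.49% in Col (q = 1.77e-69 in the authors' deposited table), and it overlaps an 82-bp interval with 92.0% in Ler and 95.8% in Col. AT2G32150, a haloacid dehalogenase-like hydrolase gene, had an 88-bp intron with 90.3% in Ler and listed at 0 in Col (q = 5.10e-244 in the authors' deposited table), while its 93-bp intron had 4.98% in Ler and 13.8% in Col with no mark. AT4G23330, whose product is uncharacterised, had a 93-bp intron with 68.0% in Ler and listed at 0 in Col. All 3 are annotated coding introns with GT-AG ends in the Col sequence printed above, and each holds a stop codon in frame when kept.

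Most of the other large differences were at introns kept in part in one or both ecotypes. GAPCP-1, a plastid glyceraldehyde-3-phosphate dehydrogenase, had 53.1% in Ler and 8.57% in Col at a 108-bp intron. RLP14, a receptor-like protein, had 96.7% in Ler and 28.6% in Col at an interval annotated as exon. AT5G03830 had 96.8% in Ler and 36.2% in Col at a 95-bp intron, and an 80-bp interval inside it, with the same right end, had 64.3% in Ler and 66.7% in Col. The event that sets their donors against each other had 93.3% in Ler and 19.6% in Col, without a mark. At these levels the 80-bp junction was the main one of the pair in Ler and the lesser one in Col. The difference at the 95-bp intron thus went with a shift of donor. AT3G54910, an RNI-like gene, had 95.2% in Ler and 47.2% in Col before its start codon, and AT1G30550, a methyltransferase gene, had 96.9% in Ler and 11.6% in Col after its stop codon. AT3G18500, a DNase I-like gene, had 78.8% in Ler and 28.6% in Col at a 94-bp intron and 32.1% in Ler and 8.79% in Col at a 91-bp intron with the same start. The widest difference was at ZML1, a GATA-type factor of light responses, whose 98-bp intron had 98.4% in Ler and was listed at 0 in Col. It went with a switch of acceptor: the event between the 98-bp and 113-bp junctions was at 0 in Ler and 99.3% in Col and is marked, while the 113-bp interval had 55.6% in Ler and 66.7% in Col with no mark.

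Members higher in Col had medians of 12% in Ler and 42.9% in Col, and 26 of the 63 lay under 10% in Ler. The largest difference was that of the GT-TG interval of AT1G02300 named above (q = 9.34e-33 in the authors' deposited table). A second interval of that gene ends 5 bases before it, at chr1:454064-454169, and had 5.95% in Ler and 41.4% in Col, so both of these neighbouring intervals, neither of them annotated, had far lower levels in Ler. AT2G30600, a BTB/POZ protein gene, had 11.8% in Ler and 97.8% in Col at its 98-bp interval and 6.25% in Ler and 24.6% in Col at its annotated 92-bp intron with the same start. At these sites the table also lists an alternative acceptor event, with the nearer acceptor used at 66.7% in Ler and 99.3% in Col. The 98-bp junction was thus the lesser of the pair in Ler and rare in Col.

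AT2G25050, a formin gene for actin assembly, differed along a run of introns. Its 89-bp intron was listed at 0 in Ler and at 53.0% in Col. The neighbouring 114-bp intron had 5.0% in Ler and 65.4% in Col and the 151-bp intron after it 5.77% in Ler and 56.2% in Col, both marked higher in Col, while the 147-bp intron beyond them had 98.0% in Ler and 83.7% in Col and was marked higher in Ler. RUS2, a protein needed for early root growth and auxin transport, had 2.94% in Ler and 40.3% in Col at a 96-bp intron. AT4G15765, an oxidoreductase gene, had 15.3% in Ler and 90.5% in Col.

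NPQ4 encodes PsbS, the photosystem II protein needed for the rapid dissipation of excess light, and its 93-bp interval had 12.9% in Ler and 58.3% in Col. An 82-bp interval of NPQ4 was also marked, with 23.2% in Ler and 97.0% in Col. For both introns the table lists an alternative-site event at the same junction with levels of 98.8 and 99.5% in Ler and 99.9 and 100.0% in Col, so the junction of the interval named here was the rare one of its pair. ALB3, which inserts light-harvesting proteins into the thylakoid membrane, had 38.6% in Ler and 83.8% in Col at an interval without annotation. AT1G56460, a zinc finger gene, had 59.5% in Ler and 97.0% in Col at a 98-bp interval. A 101-bp interval with the same start had 14.0% in Ler and 15.2% in Col with no mark. The event that sets their acceptors against each other had 9.40% in Ler and 0 in Col, so the 98-bp junction was the rare one of the pair.

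Several marked members in 1 gene occurred in 16 genes, 8 with all higher in Ler, 5 with all higher in Col and 3 in both directions. In 12 of the 16 the intervals lie apart, with 6 genes higher in Ler throughout, 3 higher in Col throughout and 3 in both directions. WRKY40 and WRKY33 are transcription factors induced by pathogens and their elicitors, and WRKY33 drives the synthesis of the antimicrobial camalexin. WRKY40 had 30.9% in Ler and 6.26% in Col at its 95-bp intron and 36.4% in Ler and 9.14% in Col at its 109-bp intron. Its 410-bp intron was marked as well, with 14.2% in Ler and 1.94% in Col. WRKY33 had 18.6% in Ler and 4.39% in Col at its 90-bp intron and 17.9% in Ler and 4.6% in Col at its 96-bp intron. In each gene the introns of the window had like levels, all higher in Ler. NUDT7, a nudix hydrolase that restrains defence responses, was also higher in Ler, with 95.8% in Ler and 67.6% in Col at 87 bp and 24.6% in Ler and 5.33% in Col at 102 bp. PMDH2, a peroxisomal malate dehydrogenase, had 99.4% in Ler and 72.2% in Col at 86 bp and 67.9% in Ler and 26.2% in Col at 89 bp.

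Genes with several introns higher in Col included CPK28, a calcium-dependent protein kinase that restrains immune signalling, with 26.8% in Ler and 48.9% in Col at 95 bp and 22.5% in Ler and 42.9% in Col at a second intron. MCM3, a subunit of the replicative helicase, had 2.94% in Ler and 23.3% in Col at 90 bp and 3.10% in Ler and 22.0% in Col at 92 bp. Opposite directions within a gene occurred in HPR, hydroxypyruvate reductase of photorespiration, with 70.4% in Ler and 94.9% in Col at 97 bp and 56.0% in Ler and 35.3% in Col at 91 bp. The event between the 87-bp and 91-bp junctions of HPR had 99.0% in Ler and 99.0% in Col, so the 91-bp junction was the rare one of that pair. AtCaN2, a calcium-dependent nuclease, had 24.5% in Ler and 5.80% in Col at 101 bp and 3.41% in Ler and 16.5% in Col at 94 bp. AT3G61420, whose 88-bp intron was higher in Ler, had 55.7% in Ler and 90.2% in Col at 107 bp. Overlapping introns moved the same way in LDA, a limit dextrinase of starch breakdown, with 26.5% in Ler and 5.84% in Col at 98 bp and 72.9% in Ler and 38.8% in Col at 102 bp.

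Plain introns of 1 gene were also set against each other. In the 28 genes with 2 or more of them, Spearman's rho between the first and the second was 0.65 in Ler and 0.58 in Col for the level and 0.38 for the difference between ecotypes. Both were higher in Ler in 11 genes and both higher in Col in 3, and in the other 14 they went in opposite directions or were equal. Introns of a gene share its transcripts and its reads, so these are descriptions.

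Gene groups were taken by words in the product names. Transcription factors had 98 members in 72 genes with medians of 29.8% in Ler and 28.1% in Col, and 12 were marked, 8 higher in Ler and 4 in Col. That share of 12.2% has a Wilson interval of 7.15 to 20.2%, which takes in the 7.46% of all events on its lower side. The largest differences were those of AT3G61420, AT1G56460 and WRKY40 given above. Ubiquitin and proteasome genes had 64 members, of which 6.25% were marked (Wilson interval 2.46 to 15.0%, near the 7.46% of all events), 3 higher in Ler and 1 in Col. UBC28, a ubiquitin-conjugating enzyme, had 49.5% in Ler and 14.3% in Col at a 102-bp intron before its start codon. The event between the 99-bp and 102-bp junctions had 97.2% in Ler and 97.9% in Col, so the 102-bp junction was the rare one of that pair. AT3G03040, an F-box gene, had 79.7% in Ler and 52.0% in Col, and AT1G33420, with RING and PHD zinc fingers, had 28.3% in Ler and 54.5% in Col and is also the 1 marked member of the 23 in the chromatin group.

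Protein kinases and phosphatases had 79 members, of which 5.06% were marked (against 7.46% of all events), 1 higher in Ler and 3 in Col. AT3G16560, a protein phosphatase 2C gene, had 11.3% in Ler and 0.847% in Col. PTI1-4, a kinase, had 26.1% in Ler and 40.4% in Col. Transporters had 36 members, of which 5.56% were marked, with 1 mark in each direction: MGT1, a magnesium transporter, had 27.4% in Ler and was listed at 0 in Col, and AT4G27870, a vacuolar iron transporter-like gene, had 5.35% in Ler and 27.3% in Col. Genes of RNA processing had 38 members with medians of 68.0% in Ler and 55.0% in Col. Of these, 1 was marked (2.63%, against 7.46% of all events): DRB5, a double-stranded RNA-binding protein, with 10.8% in Ler and 42.9% in Col.

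Photosynthesis genes had 28 members with medians of 91.4% in Ler and 93.9% in Col. Such levels need not mean kept introns, because another junction can be in use, as in NPQ4 above. Of these members, 2 were marked (7.14%, against 7.46% of all events). Besides NPQ4, this was PSAE-2, a subunit of photosystem I, whose 103-bp interval with a GC donor had 100.0% in Ler and 89.1% in Col. Ribosomal protein genes had 12 members, also at high levels (medians 88.8% in Ler and 90.9% in Col), with no mark. The largest difference among them was that of AT3G14595, with 83.3% in Ler and 57.9% in Col. Immune receptor genes of the intracellular TIR and NB-ARC kind, which leave out receptor-like proteins such as RLP14 and RLP26, had 4 members and no mark, and AT5G45060 had 57.1% in Ler and 69.6% in Col. The clock genes had 1 member, in FKF1, a blue light receptor of photoperiodic flowering, with 15.1% in Ler and 13.8% in Col. The flowering list had 0 members.

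PnsL1 had the most members, and 7 genes tied next with 5 each, of which the first by gene number, SCAMP4 and GGT1, are described. PnsL1, a lumen-side part of the chloroplast NDH complex, had 6, with levels from 18.9 to 99.7% in Ler and from 9.33 to 91.9% in Col. Each level was higher in Ler, at the 89-bp interval only by 77.4% in Ler to 77.0% in Col. All 6 share an end with an event of another type, and some overlap one another, so they are not separate introns. The 1 marked among the 6 was a 100-bp interval with 99.7% in Ler and 71.1% in Col (q = 2.24e-26 in the authors' deposited table). It has the same end as the 96-bp interval. SCAMP4, a secretory carrier membrane protein, had 5 annotated introns with like levels, from 29.4 to 40% in Ler and from 20.5 to 35.7% in Col, none marked. GGT1, a glutamate:glyoxylate aminotransferase of photorespiration, had 5 intervals without annotation, 4 of them at 81.8 to 94.6% in Ler and 53.8 to 93.9% in Col and the fifth at 7.01% in Ler and 6.54% in Col. The event between its 110-bp and 83-bp junctions had 99.5% in Ler and 99.7% in Col. That between its 91-bp and 83-bp junctions had 98.6% in Ler and 99.5% in Col. The 110-bp and 91-bp junctions were thus the rare ones of their pairs, and a high level there need not mean a kept intron.

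For 151 members q was under 0.05 and the ecotypes were 10 or more points apart, and 16 of these carry no mark in the authors' deposited table, 5 higher in Ler and 11 in Col. No source used here gives the rule behind the mark. Among those 16 were some of the widest differences. AT5G08230, a gene with a PWWP domain, was listed at 0 in Ler and at 92.9% in Col. APL1, a subunit of the enzyme that commits glucose to starch, had 88.9% in Ler and 9.52% in Col. FSD1, an iron superoxide dismutase of the chloroplast, had 90% in Ler and 33.3% in Col before its start codon. Each of these named intervals is also a junction of an event of another type. Their levels can therefore differ through the use of another junction, and need not show how many transcripts keep the intron. A level of 0 in 1 ecotype was listed for 17 members, 12 in Ler and 5 in Col, of which 7 were marked, and no member was at 0 in both.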

How the data were processed

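Polyadenylated RNA of 2 Ler and 2 Col samples was sequenced by the authors; the labels do not say whether samples came from separate plantings. The submitters' processing notes name TopHat and TAIR10. Per the file headers, the authors deposited 1 inclusion level per ecotype as a fraction, converted here to percent, and a q-value with a direction sign. No source used here states how samples were combined, the read minimum or the test. No values per sample and no depth were used, so no test over samples was made; members and lists were chosen with earlier results of these data known. Against the RefSeq copy of TAIR10, 1177 of 1818 members (64.7%) equal an annotated intron, 0 when shifted by 1 bp. Those that equal an annotated intron of their own gene number 1128. Of 1409 genes, 1403 are in that annotation. An intron counts as coding by the span from start to stop codon. Stop codons were read in the annotated frame, only in codons that touch the intron.

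Named are the 10 largest marked differences in each direction (1 per gene), up to 3 marked members of each of 11 gene groups (the largest difference where none is marked) and 3 genes with most members (7 tied for second place, taken in order of gene number). Introns named for their ends, frame, several marks in a gene, or absent mark were chosen after their values were seen. Alternatives concerned the call rule and the choice of introns. Counting was tested on simulated events (Python 3.11.15, pandas 2.3.3).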

Additional observations from a re-analysis of the deposited data

How the results depend on the processing

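No paired analysis was possible because the table holds 1 pooled value per ecotype; for the same reason no replicate could be left out. Of 75 alternative values, 49 stayed within the interval of the reported value (or within 1.5 times a count), 25 moved and 1 reversed. The reversal was the share higher in Ler, 46.7% of 15 called members, in genes over 500 bp from another gene (7 higher in Ler). The reported count of 135 called members became 220 (12.1%) with q under 0.05 alone, of which 114 were higher in Ler, and 79 (4.35%) with a mark and at least 20 points, of which 42 were. It was 83 without ends shared with another type (42 higher in Ler), 87 in a window 5 bp narrower at each end, 15 (5.95%) in the distant genes, and 42 (8.92%) in plain introns, of which 26 (61.9%) were higher in Ler. Allowing another length in Ler gave 8.88% called. Both changes of the call rule cover the same 1818 introns, another length in Ler covers 2028, and the other sets are smaller. The median level became 20.3% in Ler and 20.2% in Col for annotated introns, 30.8% in Ler and 30.9% in Col without shared ends, 14.1% in Ler and 13.7% in Col for plain introns, and 54.5% in Ler in the distant genes, while the median absolute difference was 4.17 points without shared ends. The cause of these shifts was not tested. Plain introns, and members without CT-AC ends, were chosen after seeing the data. The unknown depth limits every comparison: a wide difference can rest on few reads.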
